A study of Sparus aurata with 9 samples.

Results

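The Jun and Fos genes encode the subunits of AP-1, a transcription factor of paired basic leucine zipper proteins. In cultured myoblasts of gilthead sea bream (*Sparus aurata*), 9 genes carried a Jun or Fos symbol of the forms searched for. They were found by symbol alone (Jun, JunB, JunD, Fos, FosB, Fosl1 or Fosl2, with or without a single copy letter) among 27159 genes. The Fos copies *fosab* and *fosaa*, with the letters ab and aa after Fos, fell outside this search. Counts and shares of the family leave them out, and they are described below with the partner genes. Of the 9, 6 were Jun genes (*jun*, *JUN*, *junba*, *junbb*, *jund* and *JUND*) and 3 were Fos genes (*fosb*, *fosl1a* and *fosl2*). Symbols that differ only in capitals belong to different genes with identifiers of their own. All 9 had enough counts to enter the test, as did 17687 genes in all. The family was chosen by the measured fall of *JUND* (ENSSAUG00010009792) in both treated groups, so the values of *JUND* are given as a description with no test, and counts of changed genes refer to the other 8.

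Jun proteins pair with each other or with Fos proteins, whereas Fos proteins need a Jun partner to bind DNA. In mammals most of these genes are immediate early genes, switched on within minutes by growth factors, stretch or stress through MAP kinases and the ternary complex factors with Srf. Which pair forms sets how strongly AP-1 acts: c-Jun, Fos and FosB are strong activators, while JunB, JunD, Fra-1 (the product of *fosl1*) and Fra-2 (*fosl2*) are weaker ones and can compete with them. In mammalian myoblasts AP-1 is known for its part in proliferation and for the restraint that c-Jun places on MyoD, and in mouse muscle JunB is known for maintaining fibre size.

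The cells were primary cultures from fast muscle of fingerlings, in which proliferating and fusing cells were present together. At day 8 all of them were placed for 12 h in a medium without amino acids. The AA group then received amino acids for 24 h, as DMEM. The Igf-1 group received sea bream insulin-like growth factor 1 for 24 h, in the medium without amino acids and with bovine serum albumin as carrier. The CTR group stayed in the medium without amino acids, for 36 h in all. DMEM took the place of salts supplemented with glucose and vitamins, so amino acids cannot be told apart from the other components in which the media differ, nor Igf-1 from its carrier. There were 3 libraries per group. The study names 3 independent cultures without saying which library came from which, so p-values measure the spread between these libraries.

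Estimated counts summed to 48.7 to 67.1 M per library in AA, 65.7 to 67.9 M in Igf-1 and 51.6 to 61.5 M in CTR. About 4 counts appeared to stand for 1 sequenced pair, which is an inference from the values. Scaling factors (TMM) ran from 0.791 in CTR replicate 3 to 1.21 in AA replicate 3, and AA replicate 2 and CTR replicate 3 stood apart, with scores of 99.3 and 60.1 on the second principal component of all genes tested (22.7% of the variance), against −56.7 to 22.3 in the others. Markers of skeletal muscle were abundant in every library, and their summed level was 6160 to 7390 FPKM in AA, 3660 to 4000 FPKM in Igf-1 and 2300 to 2810 FPKM in CTR, with 4 of 12 called higher in AA than in CTR. Summed pigment cell markers ran the other way, at 4.84 to 7.50 FPKM in AA, 9.95 to 13 in Igf-1 and 15 to 15.6 in CTR, and 3 of 8 were called lower in AA than in CTR. Fibroblast markers summed to 2330 to 3080 FPKM in AA, 2350 to 2660 in Igf-1 and 1960 to 2430 in CTR, and none of 6 was called. Endothelial markers reached 4.96 to 9.07 FPKM in AA, 5.40 to 7.05 in Igf-1 and 2.88 to 3.93 in CTR. Leukocyte markers reached 58.9 to 80.8 FPKM in AA, 43.4 to 70.1 in Igf-1 and 32.9 to 49.8 in CTR. Neural markers reached 13.4 to 27.3 FPKM in AA, 17.1 to 20.7 in Igf-1 and 13 to 24.6 in CTR, with *elavl3* and *elavl4* at 0. In each of these 3 lists, of 5, 5 and 6 markers tested, 1 marker was called higher in AA than in CTR. Over all genes tested, 4.83% were called higher and 3.79% lower in AA than in CTR. The part of these shifts in the values below was not tested. In a bulk sample, fewer cells of a type and less RNA per cell cannot be told apart.

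The JunB copies and *fosl2* made up most of the family's transcripts. Levels are compared between genes in FPKM, in which fragments are scaled to the length of the transcript and the total of the library. Averaged over the 9 libraries, *junbb* (ENSSAUG00010025234) measured 240 ± 30.3 FPKM (SD, n = 9), *junba* (ENSSAUG00010022085) 170 ± 43.0 FPKM and *fosl2* (ENSSAUG00010001717) 104 ± 21.2 FPKM. Together these 3 held 84.5% to 90.1% of the summed FPKM of the family in every library. The middle of the order was filled by *JUN* (ENSSAUG00010014318) at 22.6 ± 2.52 FPKM, *jun* (ENSSAUG00010009287) at 18.4 ± 5.78 FPKM, *jund* (ENSSAUG00010006938) at 14.2 ± 5.39 FPKM and *fosl1a* (ENSSAUG00010006589) at 13.4 ± 4.24 FPKM. *JUND* followed at 4.30 ± 3.87 FPKM, and *fosb* (ENSSAUG00010013351) was barely present at 0.201 ± 0.149 FPKM.

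Neighbours in that order were not all separate. *junbb* exceeded *junba* in 9 of 9 libraries and *junba* exceeded *fosl2* in 8 of 9. *JUN* exceeded *jun* in 7 of 9, the exceptions being AA libraries. *jun* exceeded *jund* in 4 of 9 libraries, namely all 3 of AA, 1 of Igf-1 and none of CTR, and *jund* exceeded *fosl1a* in 5 of 9. The order of these 4 therefore differed between the groups. *fosl1a* exceeded *JUND*, and *JUND* exceeded *fosb*, in all 9.

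**Figure D1:**
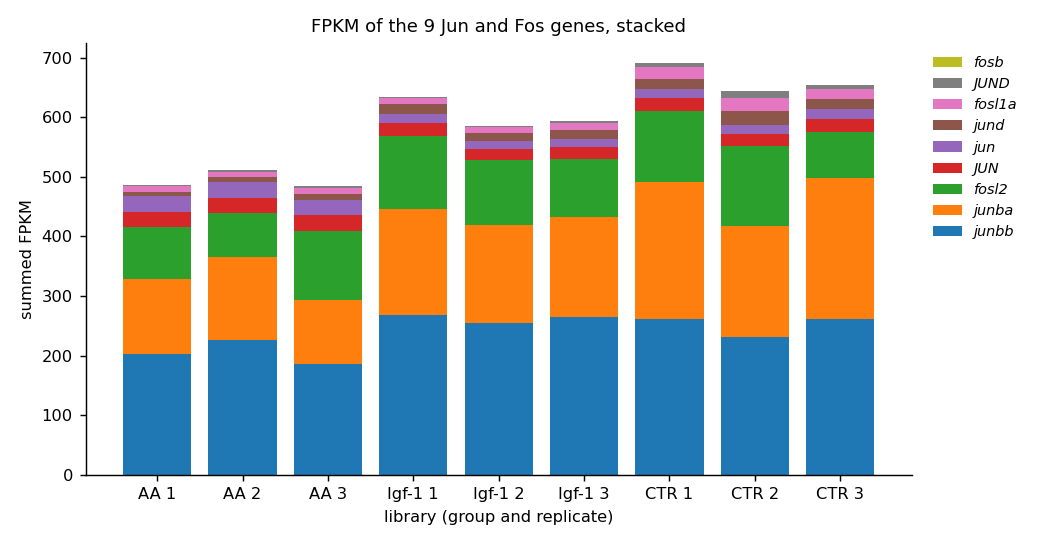
Stacked FPKM of the 9 Jun and Fos genes in each library, with the AA, Igf-1 and CTR libraries from left to right. The lower 3 blocks, *junbb*, *junba* and *fosl2*, held 84.5% to 90.1% of each column.

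As a share of the family's summed FPKM, *junba* averaged 25.2 ± 2.56% in AA, 28 ± 0.11% in Igf-1 and 32.7 ± 3.58% in CTR (SD, n = 3 each). The share of *jun* was 5.26 ± 0.234% in AA, against 2.35 ± 0.114% in Igf-1 and 2.24 ± 0.161% in CTR. *JUN* held 5.19 ± 0.251% in AA, 3.36 ± 0.0601% in Igf-1 and 3.31 ± 0.149% in CTR. The pair of c-Jun copies thus took a larger part of the family's transcripts in AA than in either other group. A share moves with all other members, and no test was made of it.

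To determine which members responded, the 3 groups were fitted together with edgeR's quasi-likelihood test. A gene was called where its adjusted p was 0.05 or less and its log2 fold change (log2FC) was 1 or more in size. With AA, 1 of the 8 members other than *JUND* was called against CTR, and it was lower (*jund*), where 8.62% of all genes tested were called, 4.83% higher and 3.79% lower. At the adjusted p alone, 4 of the 8 passed, 3 of them lower (*jund*, *fosl1a* and *junba*) and 1 higher (*jun*), against 15.2% of all genes, 7.74% lower and 7.46% higher. An unadjusted p of at most 0.05 was found in 5, against 28.2%. In 5 of the 8 the AA libraries did not overlap the CTR libraries in normalized counts, against 30.7% of all genes. The median log2FC of the 8 was −0.38, and that of all genes −0.012.

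With Igf-1, 0 of the 8 members were called against CTR, where 0.260% of all genes were called and 0.119% were called lower. None passed the adjusted p alone either (0.283% of all genes), while 2 (*fosl1a* and *jund*) had an unadjusted p of at most 0.05, against 9.11% of all genes. DESeq2, which called 208 of all genes with the fold threshold, called none of the 8 with it and 1 (*fosl1a*) without it. Its share of all genes without the threshold is not given. In normalized counts the libraries of 1 member (*fosl1a*) did not overlap between Igf-1 and CTR, against 17.2% of all genes. All 8 had a log2FC below 0, as did 50.6% of all genes, but that of *fosl2*, *jun*, *JUN* and *junbb* changed sign when single libraries were left out. The median was −0.30, against −0.0045 for all genes. AA and Igf-1 were set against the same 3 CTR libraries.

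Between AA and Igf-1, 0 of the 8 members were called, where 4.33% of all genes were called, 2.43% higher and 1.89% lower in AA, and DESeq2 called none either. At edgeR's adjusted p alone 2 of the 8 passed, *jund* lower and *jun* higher in AA, against 8.37% of all genes (4.07% lower and 4.30% higher), and 3 had an unadjusted p of at most 0.05, against 21.4%. Libraries of 6 members did not overlap in normalized counts, against 30.3% of all genes. The median of the 8 was −0.26, against −0.029 for all genes. Without both AA replicate 2 and CTR replicate 3, members past the adjusted p alone numbered 4 in AA against CTR (the same 4) and 1 in Igf-1 against CTR (*fosl1a*). In AA against Igf-1 they numbered 4, where *junba* and *junbb* joined *jund* and *jun*. The shares of all genes past the adjusted p alone are not given for that fit. By limma on log2(FPKM + 0.1) and on log2(FPKM + 1), 3 members passed the adjusted p alone in AA against Igf-1 (*junba*, *jund* and *jun*). The shares of all genes are not given there either.

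**Figure D2:**
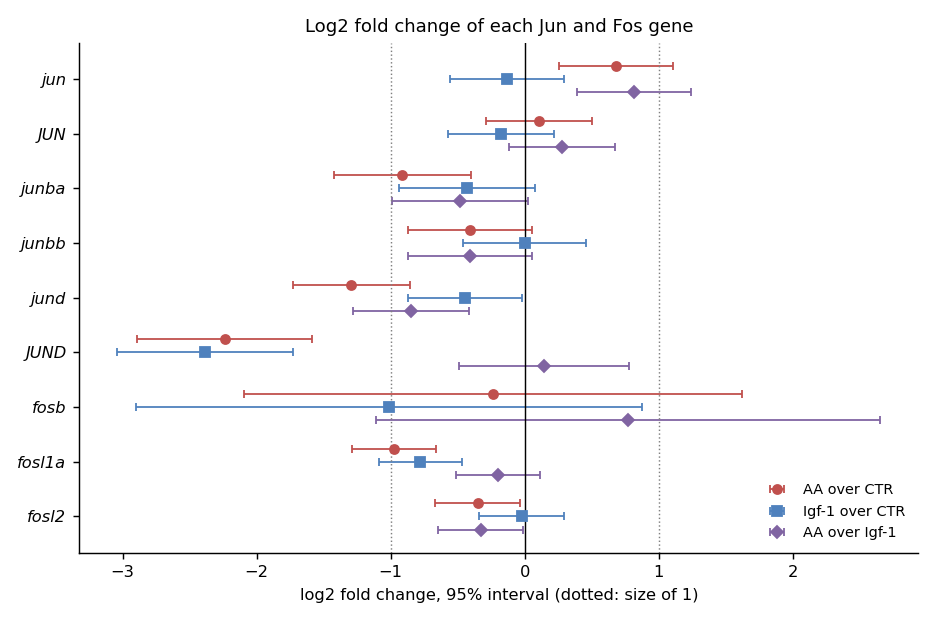
Log2FC of each Jun and Fos gene with its 95% interval, for AA over CTR, Igf-1 over CTR and AA over Igf-1. *JUND* lay below −1 in both comparisons with CTR. None of its intervals carries a test, that of AA over Igf-1 included, since the family was chosen by its fall. *jund* lay below −1 with AA alone, and *jun* was the member above 0 by its whole interval in AA against both other groups.

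JunD was carried by a pair of genes with unlike patterns. In mammals JunD is the member with the steadiest transcript level, it slows division of fibroblasts in mice, and it is bound by menin. *JUND* had 219, 269 and 283 normalized counts in AA, 223, 160.5 and 314 in Igf-1, and 865, 1489 and 1286 in CTR. Every library of both treated groups lay far below every CTR library, and AA and Igf-1 overlapped fully. The group means were 257 ± 33.6 in AA, 233 ± 77.2 in Igf-1 and 1214 ± 318 in CTR (SD, n = 3 each). The log2FC of *JUND* was −2.24 with AA and −2.38 with Igf-1, both relative to CTR. Leaving out each library in turn gave −2.43 to −2.06 with AA and −2.66 to −2.18 with Igf-1. Since the family was chosen by this fall, these values describe the fall and are no evidence for it. The log2FC of *JUND* was also read between the treated groups. Between AA and Igf-1 it was 0.14, with a 95% interval of −0.49 to 0.78. That interval is likewise a description and carries no test, since *JUND* was chosen for being low in both treated groups. In FPKM the means were 2.07 ± 0.484 in AA, 1.77 ± 0.534 in Igf-1 and 9.05 ± 2.91 in CTR.

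*jund* had 469, 547 and 465 normalized counts in AA, 934, 775 and 958 in Igf-1, and 934, 1376 and 1322.5 in CTR. The AA libraries were the lowest 3, and Igf-1 overlapped CTR only at the lowest CTR library. The means were 494 ± 46.3 in AA, 889 ± 99.7 in Igf-1 and 1211 ± 241 in CTR (SD, n = 3 each). *jund* fell with AA, by 1.29 on the log2 scale relative to CTR (SE, standard error, 0.20, adjusted p = 0.0018 by edgeR's test). The call held with each library left out in turn (adjusted p 0.0021 to 0.015). With Igf-1 the log2FC was −0.45 (95% interval −0.87 to −0.018, adjusted p = 0.52). The direct comparison of AA with Igf-1 gave −0.85 (SE 0.19, adjusted p = 0.024), which missed the threshold without AA replicate 1 (0.117), AA replicate 3 (0.065) or Igf-1 replicate 1 (0.0907), 2 (0.0553) or 3 (0.108).

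In CTR both JunD copies thus had similar counts, and in the treated groups they did not. Counts of *JUND* per count of *jund* in the same library, a ratio that no scaling between libraries can move, were 0.467, 0.491 and 0.608 in AA, 0.239, 0.207 and 0.328 in Igf-1, and 0.927, 1.08 and 0.973 in CTR. The 3 groups did not overlap, with Igf-1 lowest. Per length, in FPKM, *JUND* stood at 0.241 ± 0.0350 of *jund* in AA, 0.119 ± 0.0290 in Igf-1 and 0.460 ± 0.0371 in CTR. These ratios hold *JUND* and carry no test.

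**Figure D3:**
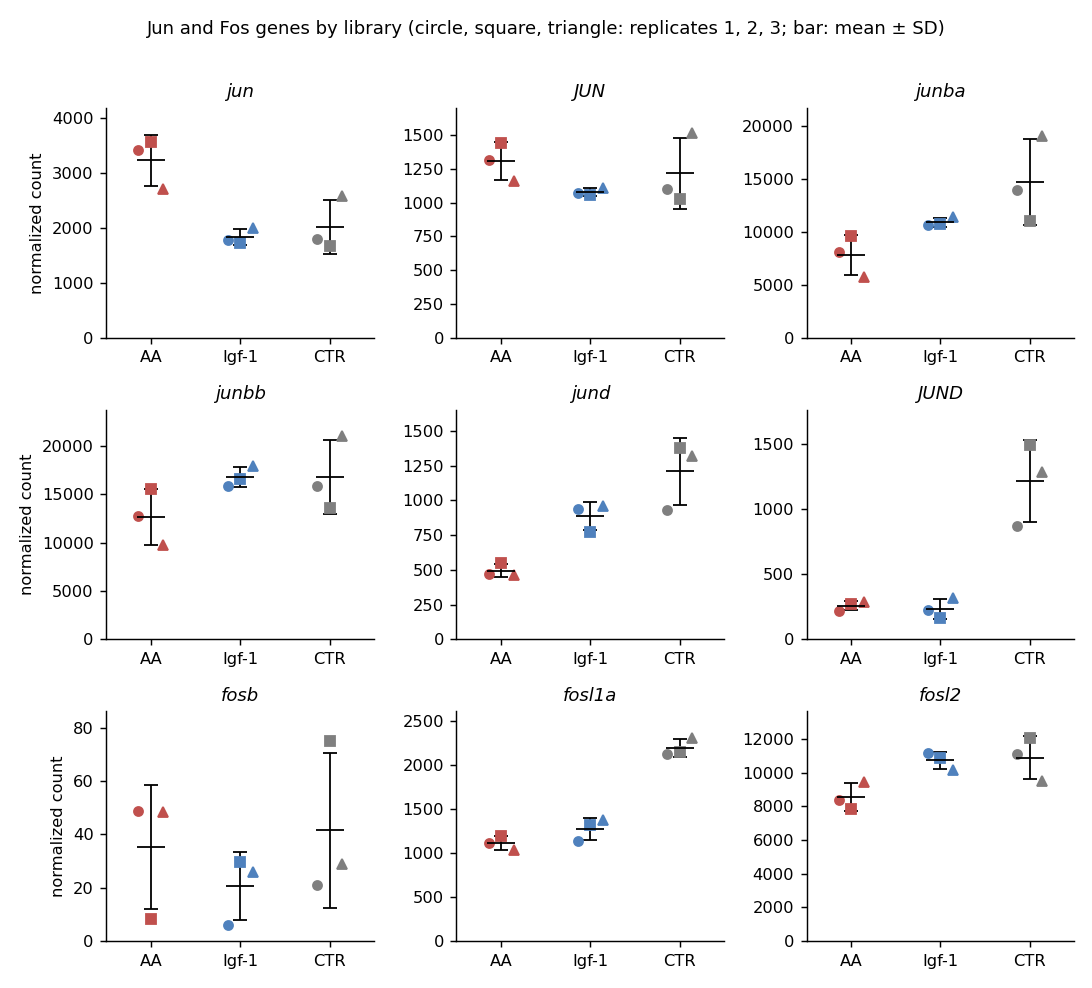
Normalized counts of each Jun and Fos gene by library in AA, Igf-1 and CTR, on linear axes from 0, with the mean and SD (n = 3 libraries). *JUND* and *fosl1a* were below CTR in all 6 treated libraries, *jund* was lowest in AA, and *jun* was highest in AA.

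c-Jun, the cellular counterpart of a viral oncogene, was also present as a pair, *jun* and *JUN*. *jun* had 3423, 3564 and 2705 normalized counts in AA, 1785, 1724 and 1999 in Igf-1, and 1800.3, 1659.7 and 2583 in CTR. All AA libraries were above all others, AA replicate 3 only just above CTR replicate 3, and Igf-1 and CTR overlapped. *jun* was the member that rose with AA. Its log2FC was 0.68 relative to CTR (SE 0.19, adjusted p = 0.036) and 0.81 relative to Igf-1 (SE 0.19, adjusted p = 0.027), both under the fold threshold. With Igf-1 it was −0.13 relative to CTR (95% interval −0.56 to 0.29, adjusted p = 0.95).

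The significance of *jun* rested on most libraries together. Against CTR the adjusted p rose to 0.0915 and 0.0966 without AA replicates 1 and 2, to 0.0592, 0.0648 and 0.0569 without Igf-1 replicates 1, 2 and 3, which share in the estimate of spread, and to 0.119 and 0.127 without CTR replicates 1 and 2, and was 0.0973 with only the AA and CTR libraries in the fit. Against Igf-1 it rose to 0.0814 and 0.0749 without AA replicates 1 and 2, and to 0.0998, 0.121 and 0.0803 without Igf-1 replicates 1, 2 and 3. In FPKM, which was scaled to library totals, the replicates lay closer together, at 26.0 ± 0.737 in AA, 14.2 ± 0.963 in Igf-1 and 14.9 ± 0.976 in CTR. With library totals in place of TMM, the log2FC against CTR was 0.81 and the adjusted p 0.0019, and the median of all genes moved by 0.105.

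*JUN* had 1315, 1445 and 1159.7 normalized counts in AA, 1071, 1053 and 1107 in Igf-1, and 1103, 1029 and 1517 in CTR. In these counts AA lay just above Igf-1 in all libraries, and CTR replicate 3 was higher than every AA library. In FPKM the AA libraries, at 25.1 to 26.5, were above all CTR libraries, at 21.1 to 22.7. With library totals in place of TMM, the log2FC of AA against CTR was 0.23 and edgeR's adjusted p 0.293. The log2FC was 0.10 with AA (95% interval −0.29 to 0.50, adjusted p = 0.78) and −0.17 with Igf-1 (95% interval −0.57 to 0.22, adjusted p = 0.91) relative to CTR, and 0.28 for AA relative to Igf-1 (adjusted p = 0.44). Without CTR replicate 2 the value for AA was −0.0035.

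Counts of *jun* per count of *JUN* were 2.60, 2.47 and 2.33 in AA, 1.67, 1.64 and 1.81 in Igf-1, and 1.63, 1.61 and 1.70 in CTR. The AA libraries stood above all others, and Igf-1 and CTR overlapped. In a two-sided exact permutation test, AA differed from CTR and from Igf-1 with p = 0.1 each, the smallest p that 3 against 3 libraries allow (adjusted p = 0.15 over the 6 ratio tests made), so this design cannot reach 0.05. Igf-1 against CTR gave p = 0.5 in the same exact test (adjusted p = 0.5).

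JunB was the most abundant Jun in these cells, as *junba* and *junbb*. *junba* had 8109, 9587 and 5747.5 normalized counts in AA, 10631, 10746 and 11400 in Igf-1, and 13965, 11038 and 19095 in CTR. In these counts the AA libraries were the lowest 3 and the CTR libraries were widely spread, with Igf-1 between. In FPKM the replicates lay closer together, at 125 ± 15.4 in AA, 169 ± 7.31 in Igf-1 and 217 ± 26.9 in CTR. With library totals in place of TMM, the log2FC of AA against CTR was −0.80 and edgeR's adjusted p 0.0038. *junba* fell with AA by 0.91 on the log2 scale relative to CTR (SE 0.23, adjusted p = 0.023), below the fold threshold. The adjusted p was 0.0917 without AA replicate 1, 0.0608 without AA replicate 3, 0.0516 without CTR replicate 1, 0.0756 without CTR replicate 3 and 0.0734 with only the AA and CTR libraries in the fit. Without AA replicate 2 or CTR replicate 2, *junba* was called (log2FC −1.09 and −1.08, adjusted p = 0.0197 and 0.0176). With Igf-1 the log2FC was −0.43 (95% interval −0.94 to 0.081, adjusted p = 0.68), and between AA and Igf-1 it was −0.48 (95% interval −0.99 to 0.025, adjusted p = 0.26). By limma on FPKM the log2FC of *junba* between AA and Igf-1 was −0.449 and −0.446 with pseudocounts of 0.1 and 1. Its adjusted p by limma was 0.0456 and 0.0429, so the adjusted p alone was passed there.

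*junbb* had 12764, 15521 and 9759.7 normalized counts in AA, 15925, 16626 and 17955 in Igf-1, and 15827, 13634 and 21053 in CTR. In these counts AA lay below Igf-1 and overlapped CTR. In FPKM the AA libraries, at 185 to 226, were below all CTR libraries, at 232 to 262. With library totals in place of TMM, the log2FC of AA against CTR was −0.30 and edgeR's adjusted p 0.098. The log2FC was −0.41 with AA (95% interval −0.87 to 0.052, adjusted p = 0.23) and −0.00016 with Igf-1 (95% interval −0.46 to 0.46, adjusted p = 1) relative to CTR, and −0.41 for AA relative to Igf-1 (adjusted p = 0.30).

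The proportion of the JunB copies was read within each library. Counts of *junbb* per count of *junba* were 1.57, 1.62 and 1.70 in AA, 1.5, 1.55 and 1.58 in Igf-1, and 1.13, 1.24 and 1.1 in CTR. Every treated library stood above every CTR library, and AA overlapped Igf-1. The means were 1.63 ± 0.0628 in AA, 1.54 ± 0.0390 in Igf-1 and 1.16 ± 0.0695 in CTR (SD, n = 3 each). AA and Igf-1 each differed from CTR with p = 0.1 in the exact permutation test, the smallest possible (adjusted p = 0.15), and AA from Igf-1 with an exact p of 0.2 (adjusted p = 0.24). How the authors' counting divided any reads shared between copies is not stated, and the likeness of their sequences was not examined. The split between the copies of JunB, of c-Jun and of JunD is uncertain to that extent.

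**Figure D4:**
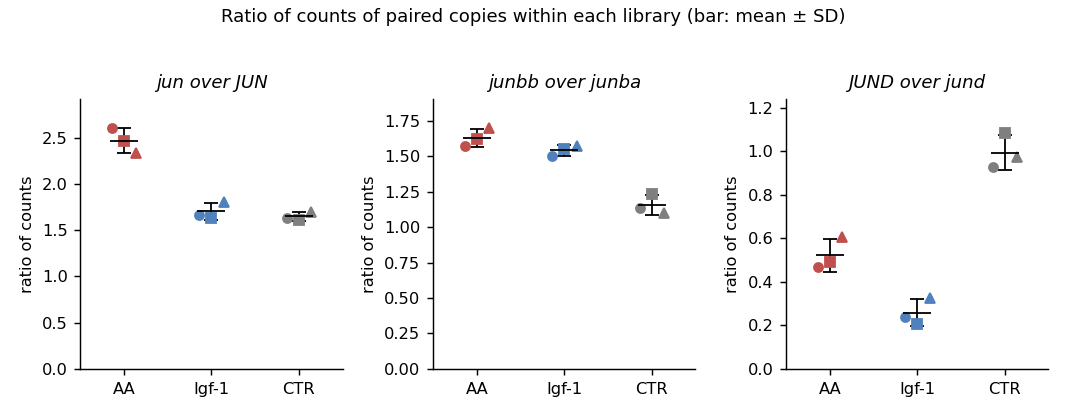
Counts of one copy per count of the other in each library of AA, Igf-1 and CTR, with the mean and SD (n = 3 libraries). The ratio of *jun* to *JUN* was 2.33 to 2.60 in AA and at most 1.81 elsewhere, that of *junbb* to *junba* was at least 1.5 in the treated libraries and at most 1.24 in CTR, and that of *JUND* to *jund* was 0.927 to 1.08 in CTR and at most 0.608 elsewhere.

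Of the Fos members of the family, *fosl1a* showed the clearest difference. It encodes Fra-1, which lacks the activation domain of Fos and in mammals remains induced longer than Fos after a stimulus. *fosl1a* had 1119, 1190.5 and 1033 normalized counts in AA, 1137.5, 1322 and 1377 in Igf-1, and 2124, 2149 and 2310 in CTR. All 6 treated libraries were below all CTR libraries, and AA and Igf-1 overlapped. The means were 1114 ± 78.9 in AA, 1279 ± 125 in Igf-1 and 2194 ± 101 in CTR (SD, n = 3 each).

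With AA *fosl1a* fell by 0.98 on the log2 scale relative to CTR (SE 0.14, adjusted p = 0.0014), just under the fold threshold, and passed the adjusted p with each library left out in turn (0.0029 to 0.012). Without AA replicate 2 the log2FC of *fosl1a* was −1.03 and without CTR replicate 1 it was −1.001, past that threshold. With Igf-1 the log2FC was −0.78 (SE 0.14), with an unadjusted p of 2.2e-04 and an adjusted p of 0.055. The adjusted p was 1.47e-05 by DESeq2, 0.0448 with counts divided by 4 and 0.0406 without CTR replicate 3 and AA replicate 2, and 0.0564 to 0.318 when single libraries were left out. AA differed from Igf-1 by −0.20 (95% interval −0.51 to 0.11, adjusted p = 0.49).

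*fosl2*, the gene of Fra-2, had 8364, 7840.4 and 9437 normalized counts in AA, 11161, 10867 and 10159 in Igf-1, and 11097, 12056 and 9513 in CTR. In these counts AA was lowest in all 3 libraries, by a narrow margin over CTR replicate 3. In FPKM, scaled to library totals, the groups overlapped. AA had 86.2, 74.5 and 117 FPKM, Igf-1 122, 109 and 97.7, and CTR 120, 133 and 77.1. With library totals in place of TMM, edgeR's adjusted p was 0.563 for AA against CTR and 0.658 for AA against Igf-1. The log2FC was −0.35 with AA (adjusted p = 0.14) and −0.021 with Igf-1 (95% interval −0.34 to 0.30, adjusted p = 0.99) relative to CTR, and −0.33 for AA relative to Igf-1 (adjusted p = 0.22). No difference in *fosl2* passed the test.

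*fosb* had 48.8, 8.27 and 48.5 normalized counts in AA, 6.11, 29.7 and 26.0 in Igf-1, and 20.9, 74.9 and 28.9 in CTR. These are few sequenced pairs, and the groups overlapped throughout. The log2FC was −0.24 with AA (95% interval −2.10 to 1.62, adjusted p = 0.90) and −1.01 with Igf-1 (95% interval −2.90 to 0.88, adjusted p = 0.87) relative to CTR, and no difference in *fosb* was detected.

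Among genes with a symbol and a mean normalized count of at least 50, those whose log2 level went most like that of *JUND* over the 9 libraries were *cyp8b2* (Pearson's r = 0.97), *amotl2a* (0.97), *sdf4* (0.96), *acadvl* (0.96), *si:ch211-117c9.1* (0.96), described as a NUAK1 kinase, and *cep63* (0.96). They are the highest 6 of 11741 candidates. *si:ch211-117c9.1* had 897, 1095 and 1139 normalized counts in AA, 848, 925 and 1354 in Igf-1, and 2347, 3584 and 2127 in CTR. No treated library reached CTR, which the ranking by likeness to *JUND* selects for. Of the other members, *fosl1a* was the nearest, with r = 0.918 and rank 34, followed by *jund* (0.721) and *junba* (0.602). *fosl2* (0.368), *fosb* (0.353), *junbb* (0.254) and *JUN* (0.0998) were further off and *jun* was negative (−0.252). The 9 points share their libraries and fall into groups, so these r are descriptions.

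The Fos copies themselves, *fosab* (ENSSAUG00010008920) and *fosaa* (ENSSAUG00010004727), carry symbols outside the family as defined here and were read among 20 further leucine zipper genes of the Atf, Batf, Jdp and Maf kind that pair with Jun or Fos. Fos is the classical early partner of c-Jun. *fosab* had 613, 671 and 459 normalized counts in AA, 409, 374 and 321 in Igf-1, and 825, 737 and 791 in CTR. The groups did not overlap, and Igf-1 was lowest. The log2FC was −1.09 with Igf-1 (SE 0.20, adjusted p = 0.060, and 7.2e-05 by DESeq2) and −0.43 with AA (adjusted p = 0.19), and AA relative to Igf-1 gave 0.66 (adjusted p = 0.075). Without AA replicate 3, *fosab* passed in Igf-1 against CTR (adjusted p = 0.0462) and in AA against Igf-1 (0.0397).

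*fosaa* was scarce, at 21.3, 10.3 and 19.0 normalized counts in AA, 30.6, 50.1 and 40.5 in Igf-1, and 121, 62.8 and 59.2 in CTR. The AA libraries were the lowest 3 and the CTR libraries the highest 3. With AA it fell by 2.26 on the log2 scale relative to CTR (SE 0.52, adjusted p = 0.015, and 0.0703 without CTR replicate 1), on few sequenced pairs.

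Of the 20 partner genes 19 were tested. With AA 2 were called lower than in CTR, *fosaa* and *maff*, and none was called higher, where 3.79% of all genes were called lower and 8.62% were called in either direction. *mafaa* was higher at the adjusted p alone. *maff*, a small Maf protein without an activation domain, had 1987, 1609 and 2871.5 normalized counts in AA, 2896, 2744 and 2773 in Igf-1, and 3849, 5444 and 3774 in CTR. Its log2FC with AA was −1.01 relative to CTR (SE 0.22, adjusted p = 0.012), with an adjusted p of 0.0606 without AA replicate 1 and 0.108 with library totals in place of TMM. The log2FC of *maff* was −0.84 without AA replicate 2 and −0.82 without CTR replicate 2, under the fold threshold. It was also under that threshold, at −0.989, with median-ratio size factors and by DESeq2, which called 1 partner in place of 2. The log2FC of *mafaa*, a large Maf protein, was 0.73 with AA relative to CTR (adjusted p = 0.041). That adjusted p was 0.0569 to 0.106 without AA replicate 2 or 3, Igf-1 replicate 1 or 2 or any CTR replicate. It was 0.069 with only the AA and CTR libraries in the fit and 0.0808 with library totals. With Igf-1 the log2FC of *mafaa* was 0.81 relative to CTR (adjusted p = 0.17). Between AA and Igf-1 it was −0.078 (adjusted p = 0.90), and no difference in *mafaa* between the treated groups was detected. Igf-1 against CTR gave 0 calls among the partners by edgeR and 1 by DESeq2, which called 46 and 208 of all genes. By edgeR 4 partners had an unadjusted p of at most 0.05, against 9.11% of all genes. AA against Igf-1 gave 0 calls by edgeR (4.33% of all genes) and 0 by DESeq2, with 2 at an unadjusted p of at most 0.05 by edgeR (21.4% of all genes). The median log2FC of the partners was −0.23 with AA and 0.14 with Igf-1, against −0.012 and −0.0045 for all genes.

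Proteins that bind Jun or mark it for degradation were tested as 6 genes. Of these 1 was called with AA (8.62% of all genes), *fbxw7*, the substrate-binding subunit of a ubiquitin ligase that recognizes c-Jun in mammals. It had 4451, 3299.6 and 7797 normalized counts in AA, 3802, 3064 and 3107.5 in Igf-1, and 2289, 2668.5 and 1939 in CTR. AA lay above CTR in all libraries, AA replicate 3 far above, and *fbxw7* rose by a log2FC of 1.17 relative to CTR (SE 0.28, adjusted p = 0.018). The adjusted p was 0.0591 without CTR replicate 1, 0.0576 with library totals in place of TMM and 0.0534 with only the AA and CTR libraries in the fit, and without AA replicate 3 the log2FC was 0.75. With Igf-1 0 of the 6 were called against CTR by edgeR (0.260% of all genes) or DESeq2 (208 of all genes). By edgeR 0 had an unadjusted p of at most 0.05, against 9.11% of all genes. Between AA and Igf-1 0 were called by either tool (4.33% of all genes by edgeR), with 1 at an unadjusted p of at most 0.05 by edgeR (21.4% of all genes).

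Upstream of the family stand the MAP kinase cascades and the ternary complex factors with Srf, which bind the promoters of early genes. Of 30 such genes 28 were tested, and with AA 1 was called higher and 1 lower than in CTR, against 4.83% higher and 3.79% lower over all genes. *elk3* (ENSSAUG00010022989), a ternary complex factor that represses in its unphosphorylated state, had 1069, 1272 and 1088 normalized counts in AA, 2723, 2812 and 2682 in Igf-1, and 2561, 2413 and 2512 in CTR. The AA libraries were far below all others, and Igf-1 lay above CTR. This *elk3* gene fell with AA by 1.13 on the log2 scale relative to CTR (SE 0.13, adjusted p = 4.4e-04). Relative to Igf-1 it fell by 1.26 (SE 0.13, adjusted p = 7.4e-04), and both calls held with each library left out in turn. Another gene with the symbol *elk3* (ENSSAUG00010004266), named after its values were seen, was more abundant and did not fall. Its mean normalized counts were 3962 in AA, 3845 in Igf-1 and 3024 in CTR. Its log2FC with AA was 0.39 relative to CTR (adjusted p = 0.18) and 0.043 relative to Igf-1 (adjusted p = 0.94).

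*SRF* rose with AA, at 4147, 4621.5 and 5466 normalized counts, against 3924, 3968 and 2321 in Igf-1 and 1929, 1824 and 3114 in CTR. All AA libraries were above all others. The log2FC relative to CTR was 1.05 (SE 0.26, adjusted p = 0.021), with an adjusted p of 0.058 without AA replicate 3, 0.0793 without CTR replicate 1 and 0.0818 without CTR replicate 2. *MAPK14*, the gene of p38 alpha, passed the adjusted p alone (log2FC 0.82, adjusted p = 0.0093, and 0.0532 with library totals in place of TMM). Igf-1 against CTR gave 0 calls among the 28 by edgeR (0.260% of all genes) and 0 by DESeq2. By edgeR 1 had an unadjusted p of at most 0.05, against 9.11% of all genes. Between AA and Igf-1, 1 of the 28 was called by edgeR (4.33% of all genes), the lower *elk3* gene given above. By edgeR 3 had an unadjusted p of at most 0.05 there, against 21.4% of all genes. The median log2FC of the 28 was 0.26 with AA and 0.14 with Igf-1.

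Other immediate early genes were read beside the family. Of 23 tested, 1 was called lower with AA than in CTR and none higher, where 8.62% of all genes were called, so the calls were no more frequent than over all genes. At the adjusted p alone 5 were lower (*ccn2a*, *dusp1*, *nr4a1* and, named after their values were seen, *ier5l* and *ccn1*), against 7.74% of all genes. Another 1 was higher (*egr1*), against 7.46%. *NR4A1* (ENSSAUG00010025444) and the scarcer *CCN1* (ENSSAUG00010011403), separate genes also named after their values were seen, did not fall with AA. Their log2FC relative to CTR was 0.057 (adjusted p = 0.92) and 0.58 (adjusted p = 0.35). For *nr4a1* in AA against CTR the adjusted p of 0.028 was 0.133 and 0.0767 without AA replicates 1 and 3, 0.0519 and 0.0504 without Igf-1 replicates 2 and 3, 0.0564 and 0.0856 without CTR replicates 1 and 3, and 0.0855 with only the AA and CTR libraries in the fit. The one called was *ccn2a*, the gene of connective tissue growth factor, with 4770.4, 5442 and 3653 normalized counts in AA, 5073, 5979 and 8488 in Igf-1, and 9946, 14225 and 12376 in CTR. All AA libraries were below all CTR libraries, and the log2FC was −1.40 (SE 0.23, adjusted p = 0.0029). *dusp1*, a phosphatase that switches off MAP kinases, had 1355, 1403 and 1235 normalized counts in AA, 2084, 2056 and 1980.1 in Igf-1, and 2428, 2557 and 2974 in CTR. The 3 groups did not overlap, with AA lowest and CTR highest, and *dusp1* had a log2FC of −0.995 for AA relative to CTR (adjusted p = 0.0010), just short of the fold threshold.

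*egr1*, a zinc finger factor and early gene, was highest in AA, as *jun* was. It had 4998, 3945 and 4348 normalized counts in AA, 3081, 2799.6 and 2900.3 in Igf-1, and 2879, 2229 and 2183 in CTR. AA lay above both other groups in every library, and *egr1* rose by a log2FC of 0.87 relative to CTR (SE 0.16, adjusted p = 0.0044). With Igf-1, 0 of the 23 were called against CTR by edgeR (0.260% of all genes) and 0 by DESeq2. By edgeR 4 had an unadjusted p of at most 0.05, against 9.11% of all genes. Between AA and Igf-1, 1 was called (4.33% of all genes), *nr4a1*, an orphan nuclear receptor. *nr4a1* fell by 1.00 on the log2 scale in AA relative to Igf-1 (adjusted p = 0.036). Its adjusted p was 0.157 without AA replicate 1, 0.0947 without AA replicate 3, 0.0663, 0.149 and 0.124 without Igf-1 replicates 1, 2 and 3, and 0.0573 without CTR replicate 1. Without CTR replicate 3 the log2FC of *nr4a1* was −0.97, under the fold threshold, as it was with median-ratio size factors (−0.96), by DESeq2 (−0.96) and with library totals (−0.94). By limma on FPKM its adjusted p was 0.0602 and 0.0531 with pseudocounts of 0.1 and 1. The separate gene *NR4A1* did not fall in AA relative to Igf-1 (log2FC 0.19, adjusted p = 0.745 by edgeR's test). Its mean normalized counts were 317 in AA, 278 in Igf-1 and 305 in CTR. The median log2FC of the 23 was −0.48 with AA and −0.19 with Igf-1.

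Genes reported as AP-1 targets in mammals went in both directions. Of 16 such genes 15 were tested, and with AA 2 were called higher and 4 lower than in CTR, where 4.83% of all genes were called higher and 3.79% lower. *edn1*, the gene of endothelin 1, had 56.3, 71.4 and 25.8 normalized counts in AA, 149, 116 and 135 in Igf-1, and 701, 894 and 933 in CTR. The 3 groups were separate, and *edn1* fell by 4.05 on the log2 scale with AA (SE 0.37, adjusted p = 1.2e-04) and fell by 2.66 with Igf-1 (SE 0.34, adjusted p = 0.013), both relative to CTR. It was the 1 target of 15 called with Igf-1, where 0.260% of all genes were called and 0.119% were called lower. That call was lost without Igf-1 replicate 1 (adjusted p = 0.0800), 2 (0.123) or 3 (0.0980) and without CTR replicate 2 (0.0618), while the log2FC stayed between −2.77 and −2.57.

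The copies of heme oxygenase, which degrades heme under oxidative stress, parted. *hmox1a* had 745, 963 and 449.8 normalized counts in AA, 41.0, 136 and 106 in Igf-1, and 74.0, 71.6 and 108 in CTR. *HMOX1* had 181, 165.5 and 174 in AA, 760.4, 747 and 759 in Igf-1, and 754, 481 and 749 in CTR. With AA *hmox1a* was the highest by far and *HMOX1* the lowest, with no overlap in either gene. *hmox1a* rose with AA by a log2FC of 3.09 relative to CTR (SE 0.46, adjusted p = 0.0015), and *HMOX1* fell by 1.93 on the log2 scale (SE 0.22, adjusted p = 3.8e-04).

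The other targets called with AA were *fn1a* (log2FC 1.33, SE 0.35, adjusted p = 0.028 by edgeR's test), *fn1b* (−1.23, adjusted p = 0.0021) and *il11a* (−1.23, adjusted p = 0.0021), named here after their values were seen. *fn1a* was widely spread in AA, at 9371 ± 4385 normalized counts against 3738 ± 956 in CTR (mean and SD). These calls were not refitted with libraries left out. Between AA and Igf-1, 1 target was called higher (*hmox1a*, log2FC 2.93) and 2 lower, *HMOX1* (−2.12) and *edn1* (−1.39). Over all genes 2.43% were called higher and 1.89% lower in AA than in Igf-1. The call of *edn1* between AA and Igf-1 was lost without AA replicate 1 (adjusted p = 0.105), Igf-1 replicate 1 (0.101), 2 (0.0770) or 3 (0.101) or CTR replicate 2 (0.0514), and with only the AA and Igf-1 libraries in the fit (0.0809). By limma on log2(FPKM + 1) its log2FC was −0.65, under the fold threshold. The median log2FC of the 15 targets with AA was −0.32, and with Igf-1 it was −0.014, and the list shared no common direction.

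**Figure D5:**
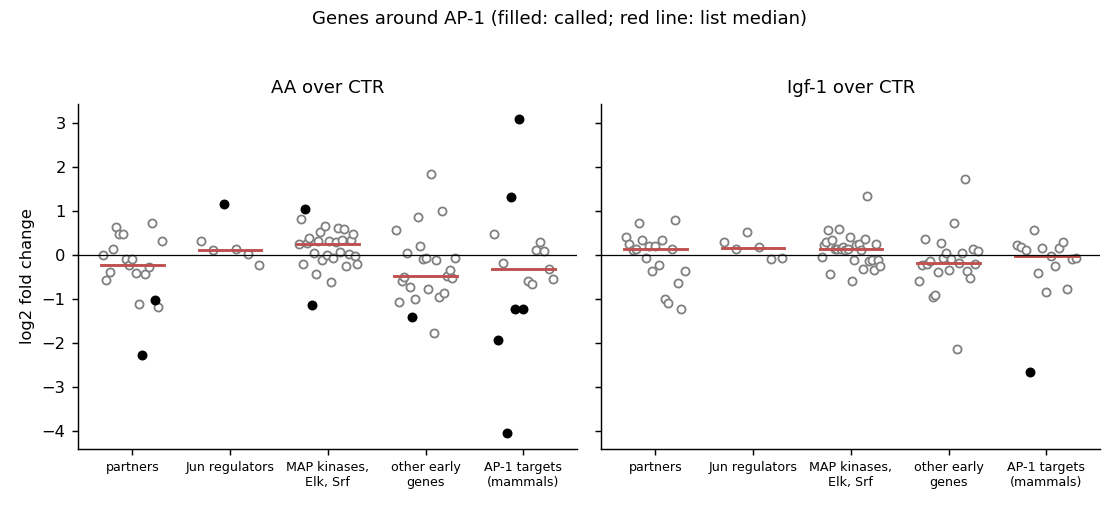
Log2FC of each tested gene of 5 lists around AP-1, for AA over CTR on the left and Igf-1 over CTR on the right, with called genes filled and the median of each list as a red line. With AA, 2 partners, 1 regulator of Jun, 2 genes of the MAP kinase list, 1 other early gene and 6 targets were called, and with Igf-1 the 1 filled point is *edn1*.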

How the data were processed

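RNA of 9 libraries was made with a stranded poly(A) kit. The authors mapped reads with HISAT2 and estimated expression with StringTie; the genome build and the use of strand in counting are not given in the sources used here. The authors deposited a table of estimated counts per gene, called normalized although library totals differ, and tables of FPKM. The tests were planned on raw counts and were run on these deposited estimated counts, which are whole numbers. The deposited FPKM gave the levels in AA and Igf-1. For CTR it was used for *JUND* and *jund*, and the other members were computed from the count, the library total and the effective length of the gene, which over 1417 genes differed from the deposited value by a median of 0.176%. The deposited tables also hold the authors' fold changes and p-values, which were not used, and the lncRNA table was not used.

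In R 4.3.3 with edgeR 4.0.16, filterByExpr left 17687 genes, which were scaled with TMM and fitted in 1 quasi-likelihood model of the 3 groups, with p-values adjusted by Benjamini and Hochberg over all of them. Normalized counts were rescaled to the mean effective library size. A standard error is the log2FC divided by the square root of F. The members of the family, and the lists of partners, regulators, kinases, early genes and targets, were chosen with earlier results of these data known. Every member is named, and of each list up to 3 genes with the smallest adjusted p per comparison, and partners freely. Other genes of the lists are marked as named after their values were seen. Alternatives were median-ratio size factors, DESeq2 1.42.0, no filter, only the groups compared, a replicate block, each library left out, no fold threshold and limma 3.58.1 on log2(FPKM + 0.1) and log2(FPKM + 1). Counts divided by 4, library totals in place of TMM, and leaving out both CTR replicate 3 and AA replicate 2 were chosen after the data were seen. The edgeR procedure was tested on simulated data. No sequences are shown.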

Additional observations from a re-analysis of the deposited data

How the results depend on the processing

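Replicate numbers were not taken to pair the libraries, since no source says that they mark a shared culture. Deviations of same-numbered libraries correlated at 0.12, −0.212 and −0.34 between AA and CTR. The values were 0.189, 0.00123 and 0.158 between Igf-1 and CTR, and 0.11, 0.0122 and −0.186 between AA and Igf-1. With 3 libraries per group these correlations cannot decide whether the libraries were paired. With the replicate block, 0 genes were called with Igf-1 in place of 46, and at the adjusted p alone 2 members (*fosl1a* and *jund*) passed in AA against CTR and 0 in AA against Igf-1. The shares of all genes past the adjusted p alone are not given for the block, so these counts cannot be set against them. With it the adjusted p in AA against CTR was 0.0607 for *SRF*, 0.0622 for *fbxw7*, 0.0759 for *mafaa* and 0.0548 for *nr4a1*, in AA against Igf-1 0.0772 for *nr4a1* and 0.0781 for *edn1*, and in Igf-1 against CTR 0.101 for *edn1*. The block also gave *fosb* a log2FC of 0.013 with AA and *junbb* one of 0.0019 with Igf-1. In AA against CTR 1525 genes were called, 2688 with no fold threshold and 1286 to 1566 without single libraries. The 1 member called became 4 with no fold threshold, and 1 to 3 without single libraries: 3 without AA replicate 2 and 2 without CTR replicate 1 or 2, with *fosl1a* or *junba* added to *jund*. In Igf-1 against CTR DESeq2 called 208 genes, the fit of the compared groups alone 21, the fit without CTR replicate 3 and AA replicate 2 113, and fits without single libraries 1 to 58. In AA against Igf-1 765 genes were called, 1480 with no fold threshold, 457 by limma on log2(FPKM + 1) and 437 to 881 without single libraries. The members called there went from 0 to 2 with no fold threshold. The cause of these shifts was not tested, other than where fewer libraries or a dropped threshold enters by construction.

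Some directions turned. For *fosb* with AA, the log2FC ran from −0.56 to 0.50 without single libraries (0.23 without AA replicate 2, 0.50 without CTR replicate 2) and was 0.046 without CTR replicate 3 and AA replicate 2. For *JUN* with AA it ran from −0.0035 to 0.33. With Igf-1, single libraries left out gave −0.11 to 0.058 for *fosl2*, −0.28 to 0.013 for *JUN*, −0.25 to 0.083 for *jun* and −0.13 to 0.19 for *junbb*. Without CTR replicate 3 and AA replicate 2 the values with Igf-1 were 0.013 for *JUN*, 0.083 for *jun* and 0.19 for *junbb*. For *junbb* with Igf-1 no filter gave 0.00086, the compared groups alone 0.0071 and library totals 0.062. Counts of *fosb* and *fosaa* rest on few sequenced pairs.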
